A study of Homo sapiens with 8 samples.

Results

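The genes described here encode the initiation and elongation factors of cytoplasmic translation, measured in 2 human multiple myeloma lines with and without added CTBP2. They were taken by name: every row of the FPKM table whose symbol starts with EIF or EEF and a digit, without the EIF2AK kinases and without pseudogenes, at 1 FPKM or more in at least 2 libraries. Of 69 such symbols 4 were EIF2AK genes and 2 were pseudogenes, and 57 of the remaining 63 passed the level filter, out of 25906 genes in the table and 12583 that passed the same filter. The 6 that did not pass were EIF1AX-AS1, EIF1B-AS1, EIF4E1B, EIF5AL1, EIF3CL and the Y-linked EIF1AY, whose level is not given. Among the 57 there were 55 protein-coding genes and 2 non-coding ones, the antisense transcript EIF3J-AS1 and the readthrough transcript EEF1E1-BLOC1S5.

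Translation begins when the EIF4F complex (the cap-binding EIF4E, the scaffold EIF4G and the helicase EIF4A) recruits an mRNA to a small ribosomal subunit that carries EIF1, EIF1A, EIF3 and the ternary complex of EIF2, GTP and initiator tRNA. EIF5 and EIF5B complete start-site selection and joining of the large subunit, EIF2B reloads EIF2 with GTP, and the EIF4E-binding proteins (EIF4EBP) hold EIF4E away from EIF4G until mTOR phosphorylates them. EEF1A then delivers aminoacyl-tRNA, EEF2 moves the ribosome along, and EIF5A helps it through difficult peptide bonds. Plasma cells and myeloma cells secrete immunoglobulin and make protein at a high rate.

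MM.1S and NCI-H929 are established lines of multiple myeloma, a plasma cell cancer. Each was transduced by lentivirus with an empty vector or with a vector that overexpresses CTBP2, a transcriptional corepressor, and RNA was taken after 72 hours from 2 libraries per line and vector, described as biological duplicates. The sources used here do not give the vectors' promoters, and nothing says whether the cells were selected after transduction. Values are FPKM, which scale fragments by transcript length and library total, so they carry no counts and depth was not estimated here. A change in all transcripts per cell would not show in them, and fewer cells with a transcript and less of it per cell cannot be told apart. The 4 empty vector libraries held 0.148 to 0.213 FPKM of CTBP2 and the 4 CTBP2 libraries 1621 to 5884 FPKM. The plasma cell genes SDC1, TNFRSF17, IRF4, PRDM1, XBP1, CD38 and SLAMF7 were present in all 8 libraries, at 12.6 FPKM or more. Of 9 markers of B cells, T cells and monocytes 8 stayed below 1 FPKM, and CD3E, at 0.527 to 53.1 FPKM, did not.

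For 2 libraries the genes that tell the lines apart went against the label. The CTBP2 replicate 2 library labelled MM.1S expressed FGFR3 (22.2 FPKM) and almost no CCND2 (0.0582 FPKM), as the NCI-H929 empty vector libraries did, and the CTBP2 replicate 2 library labelled NCI-H929 expressed CCND2 (60.7 FPKM) and almost no FGFR3 (0.0399 FPKM), as those of MM.1S did. The line was therefore read from expression, with CCND2 above 10 FPKM as MM.1S and FGFR3 above 10 FPKM as NCI-H929, and libraries are called MM.1S-expressing or NCI-H929-expressing below. In each line the values are given for empty vector replicates 1 and 2 and then for the pair of CTBP2 libraries: MM.1S CTBP2 replicate 1 and the CTBP2 replicate 2 library labelled NCI-H929, and NCI-H929 CTBP2 replicate 1 and the CTBP2 replicate 2 library labelled MM.1S. Counts are also given for the lines as labelled and for the 6 other libraries, without both CTBP2 replicate 2 libraries. Each library's total FPKM was 547097 to 659837 with the empty vector and 459733 to 544210 with CTBP2, so the totals of the 2 vectors did not overlap. A microRNA gene was the largest entry in every library, with an uneven share of the total. MIR6723 held 14.997 to 16.3% in the 4 MM.1S-expressing libraries. It held 2.86% in NCI-H929 empty vector replicate 1 and 3.69% in NCI-H929 CTBP2 replicate 1. In the CTBP2 replicate 2 library labelled MM.1S it held 11.8%. In NCI-H929 empty vector replicate 2 MIR4461 was the largest, at 8.30%. The part of the totals and of these shares in the results was not tested except by rescaling.

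The 57 factors made up 1.81 to 3.27% of all FPKM in a library, and 46 of them reached 10 FPKM in all 8 libraries. EEF1A1, which carries aminoacyl-tRNA to the ribosome, was the most abundant, at 2542 to 6684 FPKM, and ranked 10 among all genes by mean FPKM over the 8 libraries. It was followed by EEF2 (962 to 2552 FPKM), EEF1G (911 to 2276 FPKM) and EEF1B2 (563 to 1715 FPKM), so that the 4 highest were all elongation factors. Next came the helicase EIF4A1 (267 to 934 FPKM), EIF5A (199 to 746 FPKM) and EIF1 (238 to 437 FPKM). EEF1A1 was above EEF2, EEF1G above EEF1B2 and EEF1B2 above EIF4A1 in all 8 libraries. The order of EEF2 and EEF1G was not fixed, with EEF2 higher in 5 libraries and lower in 3, and EIF4A1 was above EIF5A in the 4 NCI-H929-expressing libraries and below it in the 4 others. EIF4E, the cap-binding protein, was at only 13.5 to 33.7 FPKM.

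With CTBP2 the factors that changed over both lines were mostly lower, EIF2B3, EIF4A3 and EIF5B among them. None of the 5 EEF1 subunits nor EEF2 passed, though all 5 EEF1 subunits had a log2 fold change below 0, at a median of -0.49. Over both lines, 22 of the 57 factors fell and 2 rose, and 33 did not pass (limma on log2(FPKM + 1) with line and vector as terms, Benjamini-Hochberg adjusted p under 0.05 over all genes tested). Of all 12583 genes 16.7% passed as lower and 17.4% as higher, or 34.1% in either direction. The median log2 fold change of the factors was -0.48, against 0.04 for all genes, and 49 of the 57 were below 0. In 27 of the 57 (47.4%) both CTBP2 libraries lay below both empty vector libraries in each expressed line, against 19.9% of all genes. In 4 (7.02%) they lay above, against 21.4%. In 14 factors all 4 CTBP2 libraries lay below all 4 empty vector libraries, which held for 7.45% of all genes. The 77 cytoplasmic ribosomal protein genes, the other large part of the translation machinery, had a median of -0.48 with none called. Without a variance trend in the limma fit 8 of them were called lower at the same median. That median was -0.17 without both CTBP2 replicate 2 libraries (1 called), -0.22 without the one labelled MM.1S alone, -0.08 with quantile normalization and -0.18 with equal totals outside immunoglobulin genes and CTBP2, and without NCI-H929 CTBP2 replicate 1, at -0.65, 13 of the 77 were called lower.

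Without both CTBP2 replicate 2 libraries 17 factors fell and 1 rose, where 13% and 11.5% of all genes did, and the median was -0.28. With the lines as labelled 3 fell and 0 rose, namely EIF2B3, EIF4A3 and EIF5B, at an unchanged median, where 3.34% of all genes passed. There 22 factors, or 38.6%, were below an unadjusted p of 0.05 by limma, against 22.7% of all genes. Leaving out NCI-H929 empty vector replicate 1 moved the median of the factors to -0.36 and that of all genes to 0.03, and fewer of both were called. The split depended on the scaling: with equal library totals outside immunoglobulin genes and CTBP2, 11 factors fell and 4 rose at a median of -0.19, while the median of all genes moved to 0.27 and 81.2% of all calls were higher, against 51.0% without rescaling. With quantile normalization 16 fell and 2 rose at a median of -0.17. None of the 24 called factors changed sign under the 4 rescalings run. Of the 22 that fell, 11 were still called lower with equal totals: EIF4EBP1, EIF5A, EEF1E1, EIF5B, EIF2B3, EIF4A3, EIF1AX, EIF2S1, EIF2S2, EIF3J and EIF1AD.

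**Figure D1:**
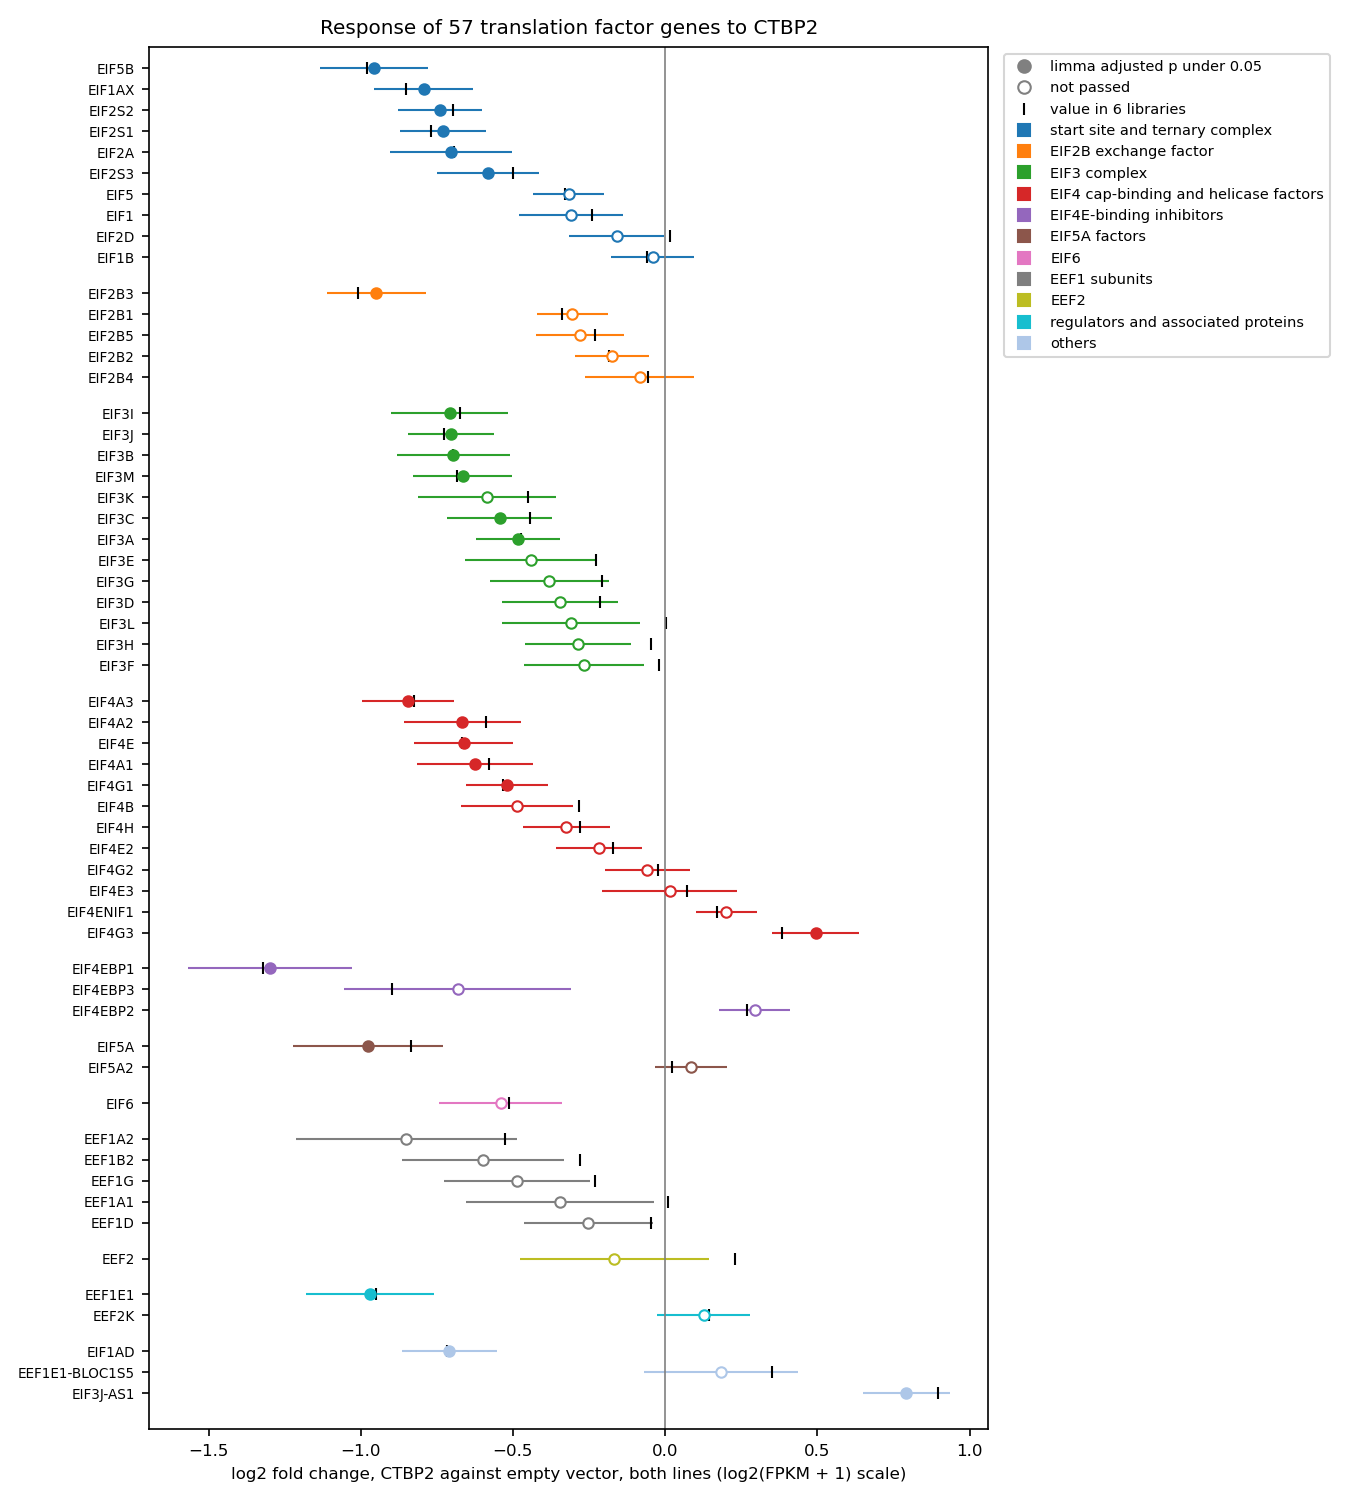
Log2 fold change with CTBP2 over both lines for each of the 57 factors (x axis, log2(FPKM + 1) scale), grouped and coloured by factor group; circles with bars are estimates with SE from limma over 8 libraries, filled where the adjusted p was under 0.05, and black ticks are the values from 6 libraries. The 22 filled circles on the left come from the initiation groups, the inhibitor EIF4EBP1, EIF5A, EEF1E1 and EIF1AD. The 5 EEF1 subunits and EEF2 are open and also lie left of 0, and EIF4G3 and EIF3J-AS1 are the filled circles on the right.

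Among the 10 factors of the start site and the ternary complex 6 fell and none rose, at a median of -0.64, and 7 were below an unadjusted p of 0.05. With quantile normalization or equal totals 4 of them were still called lower, and EIF1B changed sign under all 3 of the rescalings that moved the medians. All subunits of EIF2, the GTPase that brings initiator tRNA, were among them. Its regulatory alpha subunit EIF2S1, whose phosphorylation shuts down initiation under stress, was at 16.7 and 19.6 FPKM with the empty vector and 11.8 and 14.1 with CTBP2 in the MM.1S-expressing libraries, and at 45.3 and 39.7 against 21.3 and 20.1 in the NCI-H929-expressing libraries. Both CTBP2 libraries were below both empty vector libraries in each line, and the log2 fold change was -0.73 (limma SE 0.14, adjusted p = 0.00735). The beta subunit EIF2S2 was at 74.8 and 88.4 FPKM with the empty vector and 48.1 and 55.02 with CTBP2 in the MM.1S-expressing libraries, and at 141 and 115 against 81.2 and 62.9 in the NCI-H929-expressing libraries. Its groups did not overlap in either line, and it changed by -0.74 (limma SE 0.14, adjusted p = 0.00666) on the log2 scale. The gamma subunit EIF2S3, the one that binds GTP, was lower by less in the MM.1S-expressing libraries and had a log2 fold change of -0.58 (limma SE 0.17, adjusted p = 0.0269).

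EIF5B, the GTPase that joins the large subunit, was at 31.3 and 35.5 FPKM with the empty vector and 18.4 and 23.2 with CTBP2 in the MM.1S-expressing libraries, and at 51.5 and 34.4 against 18.6 and 15.8 in the NCI-H929-expressing libraries. Every CTBP2 library was below every empty vector library, and the log2 fold change was -0.96 (limma SE 0.18, adjusted p = 0.00654). EIF1AX, which keeps the scanning complex open, was at 28.6 and 28.6 FPKM with the empty vector and 19.2 and 21.4 with CTBP2 in the MM.1S-expressing libraries, and at 41.4 and 29.1 against 15.1 and 16.03 in the NCI-H929-expressing libraries. It too had all 4 CTBP2 libraries lowest, with a log2 fold change of -0.79 (limma SE 0.16, adjusted p = 0.00864). EIF2A, an alternative carrier of initiator tRNA that is not a subunit of EIF2, changed by -0.70 (limma SE 0.20, adjusted p = 0.0254). Its log2 fold change was -0.20 in the MM.1S-expressing and -1.21 in the NCI-H929-expressing libraries.

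The other 4 did not pass. EIF1, which guards start codon choice and was the most abundant of the group, was at 328 and 400.3 FPKM with the empty vector and 333 and 344 with CTBP2 in the MM.1S-expressing libraries, and at 437 and 332 against 297 and 238 in the NCI-H929-expressing libraries. The MM.1S-expressing groups overlapped, those of NCI-H929 did not, and the log2 fold change was -0.31 (limma SE 0.17, adjusted p = 0.178). Its paralogue EIF1B was at 16.6 and 20.5 FPKM with the empty vector and 18.9 and 21.8 with CTBP2 in the MM.1S-expressing libraries, and at 32.1 and 24.98 against 25.4 and 23.2 in the NCI-H929-expressing libraries. Its groups overlapped in both lines, with a log2 fold change of -0.04 (limma SE 0.14, adjusted p = 0.83). EIF5, the GTPase activator of EIF2, changed by -0.32 (limma SE 0.12, adjusted p = 0.0629) and EIF2D, an alternative initiation and recycling factor, by -0.16 (limma SE 0.16, adjusted p = 0.439). Leaving out 1 library ended the calls of EIF2A and EIF2S3, each in 4 of 8 cases (without either NCI-H929 empty vector library, NCI-H929 CTBP2 replicate 1 or the CTBP2 replicate 2 library labelled MM.1S), and both also failed in the 6 libraries (limma adjusted p = 0.0541 and 0.089). EIF5B, EIF1AX, EIF2S1 and EIF2S2 passed in each of the 8 cases.

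Of the 5 subunits of EIF2B, the exchange factor that recycles EIF2, only EIF2B3 passed. This gamma subunit, part of its catalytic subcomplex, was at 20.7 and 21.6 FPKM with the empty vector and 10.999 and 15.3 with CTBP2 in the MM.1S-expressing libraries, and at 31.8 and 25.8 against 12.5 and 10.7 in the NCI-H929-expressing libraries. The highest CTBP2 library was below the lowest empty vector library over both lines, and the log2 fold change was -0.95 (limma SE 0.16, adjusted p = 0.00525). EIF2B3 also passed with the lines as labelled (limma adjusted p = 0.0327) and in each case of leaving out 1 library. EIF2B1, the alpha subunit and the most abundant of the 5, was at 21.9 and 22.8 FPKM with the empty vector and 19.9 and 21.5 with CTBP2 in the MM.1S-expressing libraries, and at 64.8 and 58.7 against 42.7 and 43.8 in the NCI-H929-expressing libraries. Its log2 fold change was -0.30 (limma SE 0.12, adjusted p = 0.0709). EIF2B2, EIF2B4 and EIF2B5 changed by -0.17, -0.08 and -0.28, with limma adjusted p from 0.151 to 0.732, and all 3 had the opposite sign with equal totals outside immunoglobulin genes and CTBP2.

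EIF3 is the largest initiation factor, a scaffold on the small subunit. All 13 of its measured genes had a log2 fold change below 0, from -0.71 to -0.27 with a median of -0.48, and 6 fell: EIF3A, EIF3B, EIF3C, EIF3I, EIF3J and EIF3M. With equal totals outside immunoglobulin genes and CTBP2 EIF3F and EIF3H turned positive and EIF3J alone was still called, and with quantile normalization the same pair turned positive and 4 were called. EIF3J, a loosely bound subunit that acts near the mRNA channel, was at 41.9 and 43.98 FPKM with the empty vector and 30.5 and 33.2 with CTBP2 in the MM.1S-expressing libraries, and at 50.002 and 41.7 against 22.7 and 22.4 in the NCI-H929-expressing libraries. All 4 CTBP2 libraries were below all 4 empty vector libraries, and the log2 fold change was -0.70 (limma SE 0.14, adjusted p = 0.00792). EIF3B, a core subunit, was at 127 and 158 FPKM with the empty vector and 92.2 and 117 with CTBP2 in the MM.1S-expressing libraries, and at 73.9 and 48.7 against 34.6 and 27.3 in the NCI-H929-expressing libraries. It was lower with CTBP2 in each line without overlap, and the log2 fold change over both was -0.70 (limma SE 0.19, adjusted p = 0.0202). EIF3I and EIF3A, which form the core with it, changed by -0.71 (limma SE 0.19, adjusted p = 0.0218) and -0.48 (limma SE 0.14, adjusted p = 0.0259), and EIF3M and EIF3C by -0.66 (limma SE 0.16, adjusted p = 0.0151) and -0.54 (limma SE 0.17, adjusted p = 0.0377).

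EIF3K, a small subunit with the highest mean level of the 13, was at 201 and 276 FPKM with the empty vector and 148 and 196 with CTBP2 in the MM.1S-expressing libraries, and at 367 and 297 against 281 and 145 in the NCI-H929-expressing libraries. It was lower with CTBP2 without overlap in each line, yet did not pass, at -0.59 (limma SE 0.23, adjusted p = 0.071). EIF3E was at 81.6 and 77.1 FPKM with the empty vector and 81.4 and 72.8 with CTBP2 in the MM.1S-expressing libraries, and at 473 and 364 against 295 and 181 in the NCI-H929-expressing libraries. Only the NCI-H929-expressing libraries were apart, and the log2 fold change over both lines was -0.44 (limma SE 0.22, adjusted p = 0.136). EIF3D, EIF3F, EIF3G, EIF3H and EIF3L, the others that did not pass, lay between -0.38 and -0.27. In the 6 libraries EIF3A and EIF3C failed (limma adjusted p = 0.0667 and 0.089). EIF3J and EIF3M passed in all 8 cases of leaving out 1 library. EIF3A, EIF3B, EIF3C and EIF3I each failed without NCI-H929 empty vector replicate 1 and without MM.1S CTBP2 replicate 1. EIF3B, EIF3C and EIF3I also failed without MM.1S empty vector replicate 2, EIF3C and EIF3I without NCI-H929 empty vector replicate 2, and EIF3A and EIF3C without the CTBP2 replicate 2 library labelled MM.1S.

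Of the 12 cap-binding, scaffold and helicase factors 5 fell and 1 rose, at a median of -0.41. Of the 57 factors 38.6% fell and 3.5% rose, and of all genes 16.7% and 17.4%. With equal totals outside immunoglobulin genes and CTBP2 EIF4A3 alone of the 5 was still called lower, and with quantile normalization 3 were. EIF4A3, a helicase related to EIF4A1 that works in the exon junction complex, was at 62.8 and 71.6 FPKM with the empty vector and 33.4 and 44.6 with CTBP2 in the MM.1S-expressing libraries, and at 86.9 and 74.8 against 50.4 and 35.7 in the NCI-H929-expressing libraries. All 4 CTBP2 libraries were lowest and the log2 fold change was -0.85 (limma SE 0.15, adjusted p = 0.00593), which also passed with the lines as labelled (limma adjusted p = 0.0327). EIF4E, the cap-binding subunit, was at 19.9 and 24.5 FPKM with the empty vector and 15.6 and 17.9 with CTBP2 in the MM.1S-expressing libraries, and at 33.7 and 24.3 against 15.3 and 13.5 in the NCI-H929-expressing libraries. All 4 CTBP2 libraries were lowest, with a log2 fold change of -0.66 (limma SE 0.16, adjusted p = 0.0154). EIF4E did not pass with the lines as labelled (limma adjusted p = 0.0691). The helicase EIF4A1 was at 386 and 466 FPKM with the empty vector and 267 and 344 with CTBP2 in the MM.1S-expressing libraries, and at 934 and 739 against 589 and 405 in the NCI-H929-expressing libraries. It was lower in each line without overlap, at -0.62 (limma SE 0.19, adjusted p = 0.033), though RefSeq lists 13 pseudogenes under its name that could take some of its reads. Its paralogue EIF4A2 was at 249 and 237 FPKM with the empty vector and 223 and 204 with CTBP2 in the MM.1S-expressing libraries, and at 120.1 and 116 against 56.5 and 49.6 in the NCI-H929-expressing libraries, with a log2 fold change of -0.67 (limma SE 0.19, adjusted p = 0.0276).

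The scaffolds went opposite ways. EIF4G1, the main one, was at 152 and 167 FPKM with the empty vector and 97.5 and 124 with CTBP2 in the MM.1S-expressing libraries, and at 137 and 116 against 97.95 and 79.9 in the NCI-H929-expressing libraries, with both lines apart and a log2 fold change of -0.52 (limma SE 0.14, adjusted p = 0.0187). EIF4G3, a related scaffold, was at 6.67 and 5.30 FPKM with the empty vector and 9.43 and 8.46 with CTBP2 in the MM.1S-expressing libraries, and at 10.3 and 10.9 against 12.2 and 18.7 in the NCI-H929-expressing libraries. It was higher with CTBP2 without overlap in each line, by 0.49 (limma SE 0.14, adjusted p = 0.0274). The FPKM of EIF4G1 over that of EIF4G3 was 22.8 and 31.6 with the empty vector against 10.3 and 14.6 with CTBP2 in the MM.1S-expressing libraries, and 13.2 and 10.7 against 8.05 and 4.27 in the others. The third scaffold-like protein, EIF4G2, which lacks the EIF4E site, did not pass at -0.06 (limma SE 0.14, adjusted p = 0.758). EIF4B, EIF4H, EIF4E2, EIF4E3 and EIF4ENIF1 did not pass either, at log2 fold changes of -0.49, -0.32, -0.22, 0.01 and 0.20, and with equal totals outside immunoglobulin genes and CTBP2 EIF4ENIF1, a transporter that takes EIF4E into the nucleus, was called higher.

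EIF4A3 and EIF4E passed in all 8 cases of leaving out 1 library. EIF4A1, EIF4A2, EIF4G1 and EIF4G3 all failed without NCI-H929 empty vector replicate 1, and each failed in 2 to 4 other cases: EIF4A1, EIF4A2 and EIF4G3 without NCI-H929 empty vector replicate 2, EIF4A1, EIF4G1 and EIF4G3 without MM.1S CTBP2 replicate 1 or MM.1S empty vector replicate 2, EIF4A2 and EIF4G3 without the CTBP2 replicate 2 library labelled MM.1S, and EIF4A2 without NCI-H929 CTBP2 replicate 1. In the 6 libraries EIF4A2 and EIF4G3 failed (limma adjusted p = 0.0745 and 0.109).

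Of the 3 inhibitors that bind EIF4E only EIF4EBP1 passed. EIF4EBP1 was at 50.3 and 75.9 FPKM with the empty vector and 23.2 and 38.4 with CTBP2 in the MM.1S-expressing libraries, and at 198 and 105 against 59.6 and 38.4 in the NCI-H929-expressing libraries. Its highest CTBP2 library exceeded one of the empty vector libraries of the other line, but within each line the groups did not overlap, and its log2 fold change of -1.30 (limma SE 0.27, adjusted p = 0.00901) was the lowest of the 57. EIF4EBP2 was at 17.1 and 15.9 FPKM with the empty vector and 22.3 and 18.8 with CTBP2 in the MM.1S-expressing libraries, and at 6.52 and 6.70 against 7.26 and 9.48 in the NCI-H929-expressing libraries. It was higher with CTBP2 in each line without overlap and did not pass, at 0.29 (limma SE 0.12, adjusted p = 0.0758), though it was called higher with equal totals. EIF4EBP3 was at 0.791 and 3.98 FPKM with the empty vector and 0.766 and 3.04 with CTBP2 in the MM.1S-expressing libraries, and at 16.01 and 16.8 against 7.49 and 5.75 in the NCI-H929-expressing libraries. The MM.1S-expressing values overlapped and it did not pass, at -0.68 (limma SE 0.37, adjusted p = 0.174). Without MM.1S empty vector replicate 1 or without the CTBP2 replicate 2 library labelled NCI-H929 it was called lower, at -1.08 (limma adjusted p = 0.0206) and -1.02 (0.0352). The FPKM of EIF4EBP1 over that of EIF4E, its target, was 2.53 and 3.10 with the empty vector against 1.49 and 2.15 with CTBP2 in the MM.1S-expressing libraries and 5.89 and 4.31 against 3.89 and 2.83 in the NCI-H929-expressing ones. Within each line both CTBP2 ratios were below both empty vector ratios. EIF4EBP1 passed in all 8 cases of leaving out 1 library and in the 6 libraries (limma adjusted p = 0.0135).

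EIF5A, which carries the modified residue hypusine, was at 583 and 713 FPKM with the empty vector and 359 and 467 with CTBP2 in the MM.1S-expressing libraries, and at 746 and 617 against 382 and 199 in the NCI-H929-expressing libraries. All 4 CTBP2 libraries were below all 4 empty vector libraries, and it fell to a log2 fold change of -0.97 (limma SE 0.25, adjusted p = 0.0169), a call that ended without MM.1S CTBP2 replicate 1 or without NCI-H929 empty vector replicate 1. Its paralogue EIF5A2 was near the level filter, at 0.726 and 0.547 FPKM with the empty vector and 0.848 and 0.964 with CTBP2 in the MM.1S-expressing libraries, and at 1.73 and 1.73 against 1.49 and 1.80 in the NCI-H929-expressing libraries. Its log2 fold change was 0.09 (limma SE 0.12, adjusted p = 0.585), and it was negative with quantile normalization. EIF6, which keeps the large subunit from joining too early, was at 79.9 and 113 FPKM with the empty vector and 63.2 and 87.3 with CTBP2 in the MM.1S-expressing libraries, and at 221 and 165 against 139.9 and 93.99 in the NCI-H929-expressing libraries. The MM.1S-expressing groups overlapped and it did not pass, at -0.54 (limma SE 0.20, adjusted p = 0.0637).

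**Figure D2:**
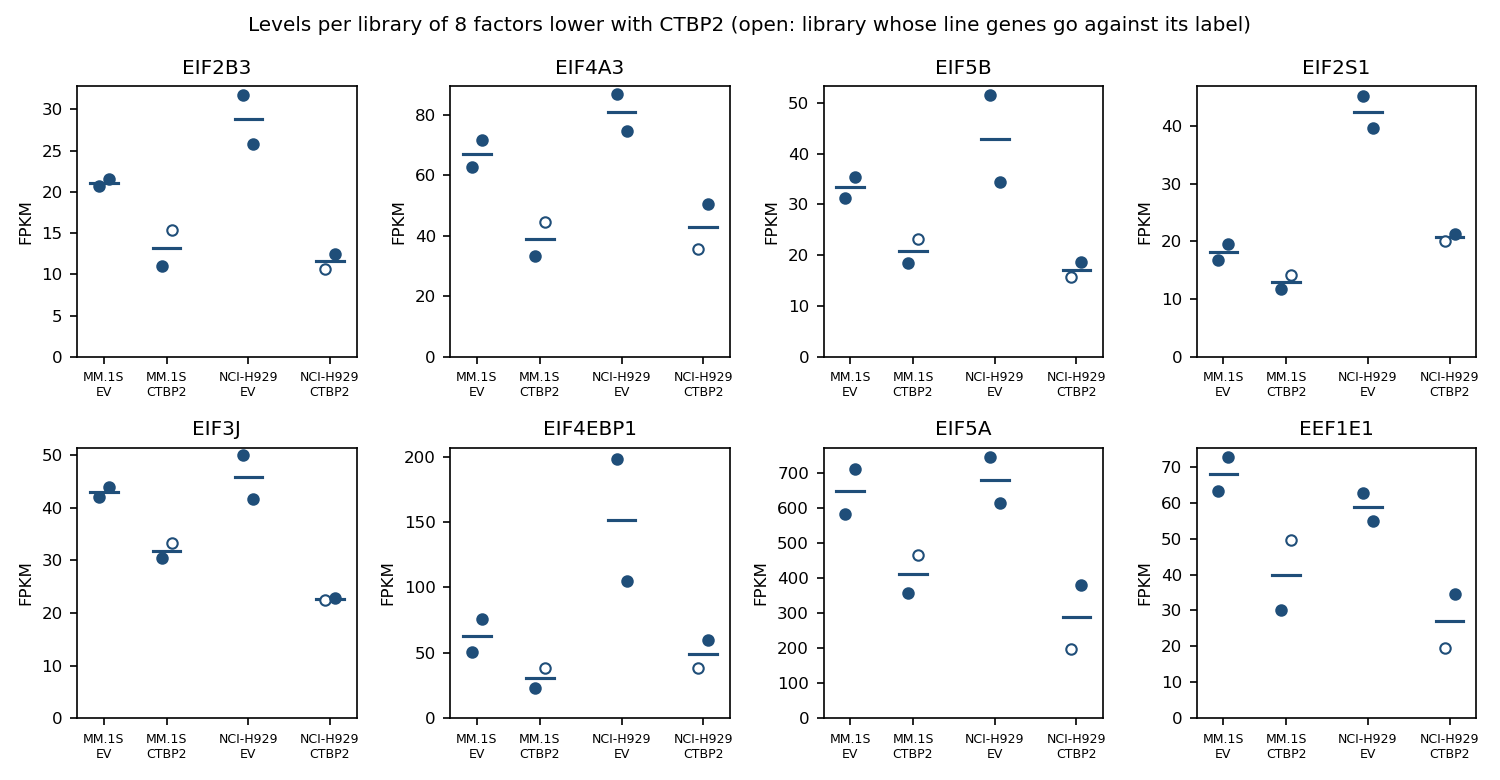
FPKM per library of EIF2B3, EIF4A3, EIF5B, EIF2S1, EIF3J, EIF4EBP1, EIF5A and EEF1E1 (y axis from 0) by expressed line and vector, with EV for the empty vector, 1 point per library, bars for the mean of 2 and open points for the libraries whose line genes go against their label. In every panel and in each line both CTBP2 points lie below both empty vector points.

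None of the 5 EEF1 subunits of the elongation machinery passed, with 1 at an unadjusted p under 0.05 by limma, and EEF2 did not pass. All 5 EEF1 subunits were below 0, at a median of -0.49, close to the -0.48 of all 57 factors. EEF1A1 was at 3009 and 2818 FPKM with the empty vector and 3273 and 2542 with CTBP2 in the MM.1S-expressing libraries, and at 6684 and 5656 against 5538 and 2668 in the NCI-H929-expressing libraries. The MM.1S-expressing groups overlapped, the CTBP2 replicate 2 library labelled MM.1S was far below the other 3 that express NCI-H929 genes, and the log2 fold change of -0.35 (limma SE 0.31, adjusted p = 0.395) became 0.01 in the 6 libraries. EEF2 was at 962 and 1040.2 FPKM with the empty vector and 1181 and 1003 with CTBP2 in the MM.1S-expressing libraries, and at 2552 and 1782 against 2490.1 and 971 in the NCI-H929-expressing libraries. Its groups overlapped in both lines and it had a log2 fold change of -0.17 (limma SE 0.31, adjusted p = 0.69), with the opposite sign in the 6 libraries (0.23) and under quantile normalization and equal totals. EEF1B2 and EEF1G, subunits of the complex that reloads EEF1A with GTP, changed by -0.60 (limma SE 0.27, adjusted p = 0.106) and -0.49 (limma SE 0.24, adjusted p = 0.136). EEF1D, a further subunit of that complex, changed by -0.25 (limma SE 0.21, adjusted p = 0.363) and was positive under quantile normalization and equal totals. A difference between initiation and elongation factors as groups was not tested.

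EEF1A2, the form of EEF1A normally used by muscle and neurons, was above 0.1 FPKM in the NCI-H929-expressing libraries only. It was at 0 and 0.0641 FPKM with the empty vector and 0.0241 and 0.0274 with CTBP2 in the MM.1S-expressing libraries, and at 213 and 201 against 99.97 and 39.9 in the NCI-H929-expressing libraries. All 4 MM.1S-expressing values were below 0.1 FPKM, and in the NCI-H929-expressing libraries the groups did not overlap, with a fall to a log2 fold change of -1.69 (limma SE 0.35, adjusted p = 0.0102). In the 6 libraries, with 1 CTBP2 library of this line, the value was -1.04. Over both lines EEF1A2 did not pass, at -0.85 (limma adjusted p = 0.094). EEF1A2 made up 3.09 and 3.44% of the FPKM of both EEF1A genes in NCI-H929 with the empty vector, and 1.77 and 1.47% with CTBP2.

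EEF1E1, a scaffold of the multi-tRNA synthetase complex despite its name, was at 63.2 and 72.7 FPKM with the empty vector and 30.04 and 49.5 with CTBP2 in the MM.1S-expressing libraries, and at 62.8 and 54.9 against 34.6 and 19.7 in the NCI-H929-expressing libraries. All 4 CTBP2 libraries were lowest, with a log2 fold change of -0.97 (limma SE 0.21, adjusted p = 0.0103) that passed in all 8 cases of leaving out 1 library. EEF2K, the kinase that inactivates EEF2, was at 7.49 and 6.15 FPKM with the empty vector and 10.3 and 9.15 with CTBP2 in the MM.1S-expressing libraries, and at 4.42 and 4.13 against 3.42 and 3.72 in the NCI-H929-expressing libraries. It was higher with CTBP2 in the MM.1S-expressing and lower in the NCI-H929-expressing libraries, without overlap in either, and its log2 fold change over both was 0.13 (limma SE 0.15, adjusted p = 0.535). EIF1AD, named for a domain like that of EIF1A, was at 14.8 and 18.95 FPKM with the empty vector and 10.1 and 13.2 with CTBP2 in the MM.1S-expressing libraries, and at 21.7 and 17.8 against 11.2 and 8.80 in the NCI-H929-expressing libraries. Every CTBP2 library was below every empty vector library, and it fell to a log2 fold change of -0.71 (limma SE 0.16, adjusted p = 0.0106).

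EIF3J-AS1, transcribed antisense from beside EIF3J, was at 3.78 and 3.84 FPKM with the empty vector and 6.87 and 5.14 with CTBP2 in the MM.1S-expressing libraries, and at 0.901 and 0.846 against 2.96 and 2.81 in the NCI-H929-expressing libraries. It was higher with CTBP2 without overlap in each line, by 0.79 (limma SE 0.14, adjusted p = 0.00623), the highest of the 57, while EIF3J itself fell. Whether reads were counted by strand is not stated, so reads of EIF3J-AS1 and EIF3J cannot be told apart where they overlap. The readthrough transcript EEF1E1-BLOC1S5, which shares its reads with EEF1E1, ranged from 0 to 1.49 FPKM and did not pass, at 0.18 (limma SE 0.25, adjusted p = 0.587).

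Taken line by line, 0 of the 57 passed in the MM.1S-expressing libraries (limma on 4 group means, 14 at an unadjusted p under 0.05), where 5.47% of all genes passed and 26.9% were at an unadjusted p under 0.05, and the median of the factors was -0.21 against 0.00. That median was -0.03 with equal totals outside immunoglobulin genes and CTBP2 and -0.04 with quantile normalization, with 34 and 33 of the 57 below 0 in place of 46. In the NCI-H929-expressing libraries 24 fell and 1 rose, where 14.6% of all genes fell and 18.3% rose, and the median was -0.66 against 0.05. It was -0.26 with equal totals, -0.30 with quantile normalization, -0.42 without the CTBP2 replicate 2 library labelled MM.1S and -1.01 without NCI-H929 CTBP2 replicate 1. The 77 cytoplasmic ribosomal protein genes had a median of -0.28 in the MM.1S-expressing libraries, with none called. In the NCI-H929-expressing libraries their median was -0.67, with 3 called lower and 0 higher. It was -0.085 without the CTBP2 replicate 2 library labelled MM.1S and -1.21 without NCI-H929 CTBP2 replicate 1. Both comparisons enter the one over both lines, with the same empty vector libraries. The lowest of the MM.1S-expressing values was that of EIF4EBP1, -1.02 (limma SE 0.38, adjusted p = 0.135), followed by EEF1E1, -0.80 (limma SE 0.30, adjusted p = 0.139), and EIF4A3, -0.78 (limma SE 0.22, adjusted p = 0.0724). In the NCI-H929-expressing libraries EEF1A2 was followed by EIF4EBP1, -1.57 (limma SE 0.38, adjusted p = 0.0176), EIF5A, -1.30 (limma SE 0.34, adjusted p = 0.0224), EIF5B, -1.25 (limma SE 0.22, adjusted p = 0.00581), and EIF2B3, -1.24 (limma SE 0.19, adjusted p = 0.00389), and the one that rose was EIF3J-AS1, 1.05 (limma SE 0.16, adjusted p = 0.00369). In the 6 libraries each line has 1 CTBP2 library, which is assumed to vary like the other groups. There 3 fell and 1 rose in MM.1S, where 5.56% and 5.8% of all genes did, and 10 fell and 1 rose in NCI-H929, where 6.52% and 8.81% did. With the lines as labelled 0 passed in MM.1S (0.0238% of all genes did) and 0 in NCI-H929 (0.0556%), with 14 and 18 at an unadjusted p under 0.05 by limma, against 19.3% and 16.6% of all genes. The NCI-H929 count of 25 became 15 with equal totals outside immunoglobulin genes and CTBP2, where 3858 of all 12583 genes were higher and 646 lower. Without NCI-H929 empty vector replicate 1 the factors' median was -0.48 against 0.05 for all genes. Fewer factors and fewer of all genes were called there and without the CTBP2 replicate 2 library labelled MM.1S. More of both were called without NCI-H929 CTBP2 replicate 1. Where a library was left out, the lone library of that group was assumed to vary like the others.

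The difference between the lines passed for 0 of the 57 by limma, with 11 at an unadjusted p under 0.05, while 1.26% of all genes passed and 15.4% were at an unadjusted p under 0.05. The NCI-H929 response minus the MM.1S response was below 0 for 51 of them, at a median of -0.40 against 0.02 for all genes. This median was -0.15 in the 6 libraries, with 34 below 0, -0.20 without the CTBP2 replicate 2 library labelled MM.1S alone, -0.62 without NCI-H929 CTBP2 replicate 1 and -0.19 with equal totals. For the 77 cytoplasmic ribosomal protein genes the median difference was -0.37, and 0.11 in the 6 libraries. EIF2A and EIF4A2 had the smallest unadjusted p values, and their differences were -1.01 (limma SE 0.22, adjusted p = 0.0797) and -0.95 (limma SE 0.23, adjusted p = 0.0997). EIF2B4 and EEF2K had both CTBP2 libraries above the empty vector libraries in MM.1S and below them in NCI-H929, with differences of -0.78 (limma SE 0.26, adjusted p = 0.2) and -0.67 (limma SE 0.22, adjusted p = 0.193). EIF4E3 had the reverse signs, -0.45 and 0.48, and a difference of 0.94 (limma SE 0.32, adjusted p = 0.218).

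**Figure D3:**
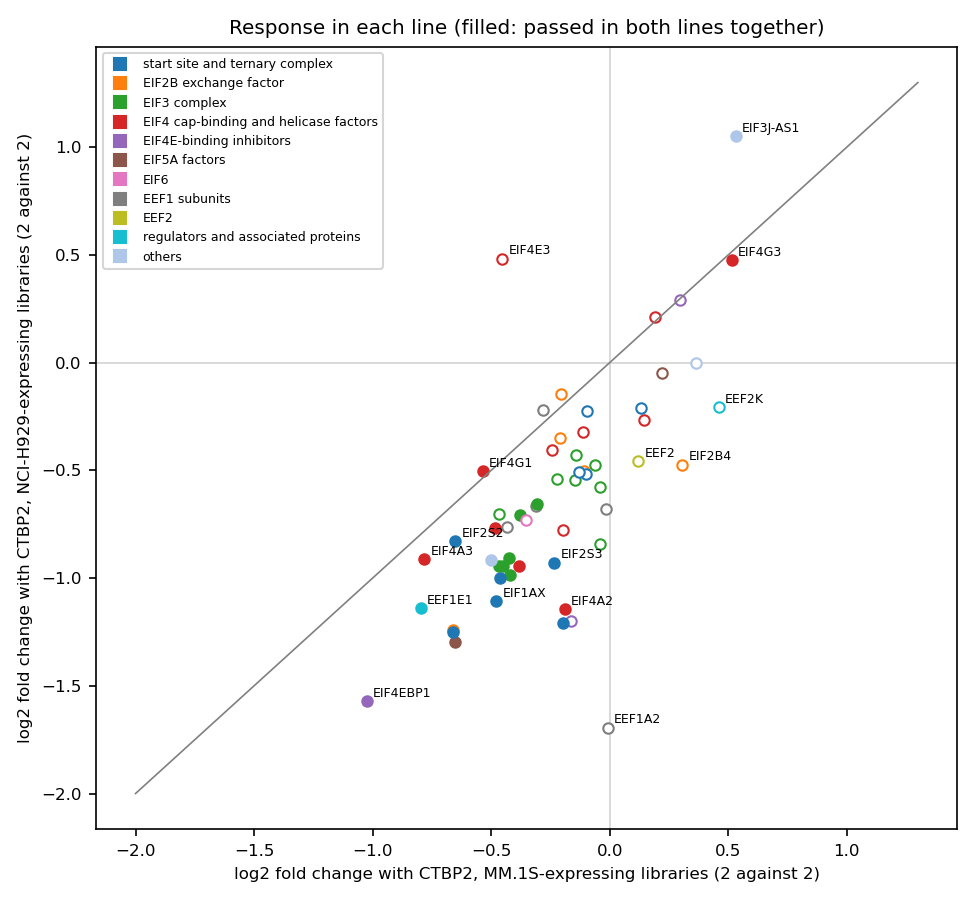
Log2 fold change with CTBP2 of each of the 57 factors in the MM.1S-expressing (x axis) and NCI-H929-expressing libraries (y axis), coloured by factor group and filled where the test over both lines passed, with the line of equal response in grey. Most points lie below that line, EIF4EBP1 is lowest in MM.1S and EEF1A2 in NCI-H929, and EIF4E3, EEF2K, EIF2B4 and EEF2 are among the points with opposite signs.

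The lines already differed without CTBP2. Between the empty vector libraries 20 factors were higher in NCI-H929 and 9 lower, where 22.1% of all genes were higher and 28.7% lower, or 50.8% in either direction, and the median difference was 0.42 against -0.10 for all genes. With equal totals outside immunoglobulin genes and CTBP2 it was 15 higher and 11 lower at a median of 0.22, with small RNA genes also left out of the totals (added after seeing the data) 14 and 11 at 0.11, and in the fit of 6 libraries 24 and 10, where 23.7% and 30.9% of all genes passed. With the lines as labelled 0 passed by limma, as against 0.0397% of all genes (20 at an unadjusted p under 0.05, against 24.4% of all genes), although the empty vector values are the same. Without NCI-H929 empty vector replicate 1 the median was 0.26 against -0.12 for all genes, and fewer of both were called. In the main fit of this comparison the 77 cytoplasmic ribosomal protein genes had a median difference of 0.72, with 19 called higher and 0 lower. Their median was 0.51 with equal totals and 0.12 with quantile normalization. The empty vector libraries are also the controls of the CTBP2 comparisons.

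EEF1A2 was the most different, with the values given above and a difference of 7.66 (limma SE 0.35, adjusted p = 1.5e-06). Next by p were EIF2B1 (1.43 (limma SE 0.14, adjusted p = 8.3e-05)), EIF3E (2.37 (limma SE 0.26, adjusted p = 0.000149)), EIF2S1 (1.18 (limma SE 0.16, adjusted p = 0.0005)) and EIF5 (0.90 (limma SE 0.14, adjusted p = 0.00114)), all higher in NCI-H929. EIF5 was at 17.8 and 16.7 FPKM with the empty vector and 16.1 and 15.3 with CTBP2 in the MM.1S-expressing libraries, and at 35.2 and 30.9 against 22.002 and 23.9 in the NCI-H929-expressing libraries. Lower in NCI-H929 by the smallest p were EIF4E3, EIF3J-AS1, EIF4EBP2, EIF4A2 and EIF3B. EIF4E3, a cap-binding relative of EIF4E, was at 10.1 and 6.18 FPKM with the empty vector and 6.46 and 4.68 with CTBP2 in the MM.1S-expressing libraries, and at 0.802 and 0.801 against 1.38 and 1.67 in the NCI-H929-expressing libraries. Its difference was -2.31 (limma SE 0.23, adjusted p = 9.4e-05), and that of EIF4EBP2 was -1.20 (limma SE 0.17, adjusted p = 0.000608).

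Within EIF3 and EIF2B some subunits were called higher in NCI-H929 and others lower, where 50.8% of all genes were called in either direction. Of the 13 EIF3 genes 8 did not pass. EIF3E, EIF3G, EIF3H and EIF3L were higher in NCI-H929 and EIF3B lower, the last with a difference of -1.23 (limma SE 0.25, adjusted p = 0.00376). The FPKM of EIF3E over that of EIF3B with the empty vector was 0.640 and 0.488 in MM.1S, against 6.40 and 7.47 in NCI-H929, and the CTBP2 libraries lay with their expressed line, at 0.883 and 0.625 against 8.53 and 6.62. In EIF2B, EIF2B1, EIF2B2 and EIF2B4 were higher in NCI-H929 and EIF2B5, the catalytic subunit, lower, the last with a difference of -0.81 (limma SE 0.21, adjusted p = 0.0117). For the helicases EIF4A1 was higher in NCI-H929 and EIF4A2 lower, with differences of 0.97 (limma SE 0.28, adjusted p = 0.0195) and -1.04 (limma SE 0.16, adjusted p = 0.00116). With the empty vector EIF4A1 over EIF4A2 was 1.55 and 1.97 in MM.1S, against 7.78 and 6.37 in NCI-H929. All 3 inhibitors differed, EIF4EBP1 and EIF4EBP3 higher in NCI-H929, by 1.21 (limma SE 0.38, adjusted p = 0.028) and 2.54 (limma SE 0.49, adjusted p = 0.00328), and EIF4EBP2 lower. The sum of the 3 over EIF4E was 3.43 and 3.91 in MM.1S against 6.56 and 5.28 in NCI-H929. Of these calls those of EIF3L, EIF2B2, EIF2B5, EIF4A1 and EIF4EBP1 ended in at least 1 case of leaving out a library: EIF3L in 6 of 8, EIF4A1 and EIF4EBP1 without empty vector replicate 1 of either line, EIF4A1 and EIF2B5 without MM.1S empty vector replicate 2, EIF2B2 without MM.1S empty vector replicate 1 and EIF2B5 without NCI-H929 empty vector replicate 2.

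**Figure D4:**
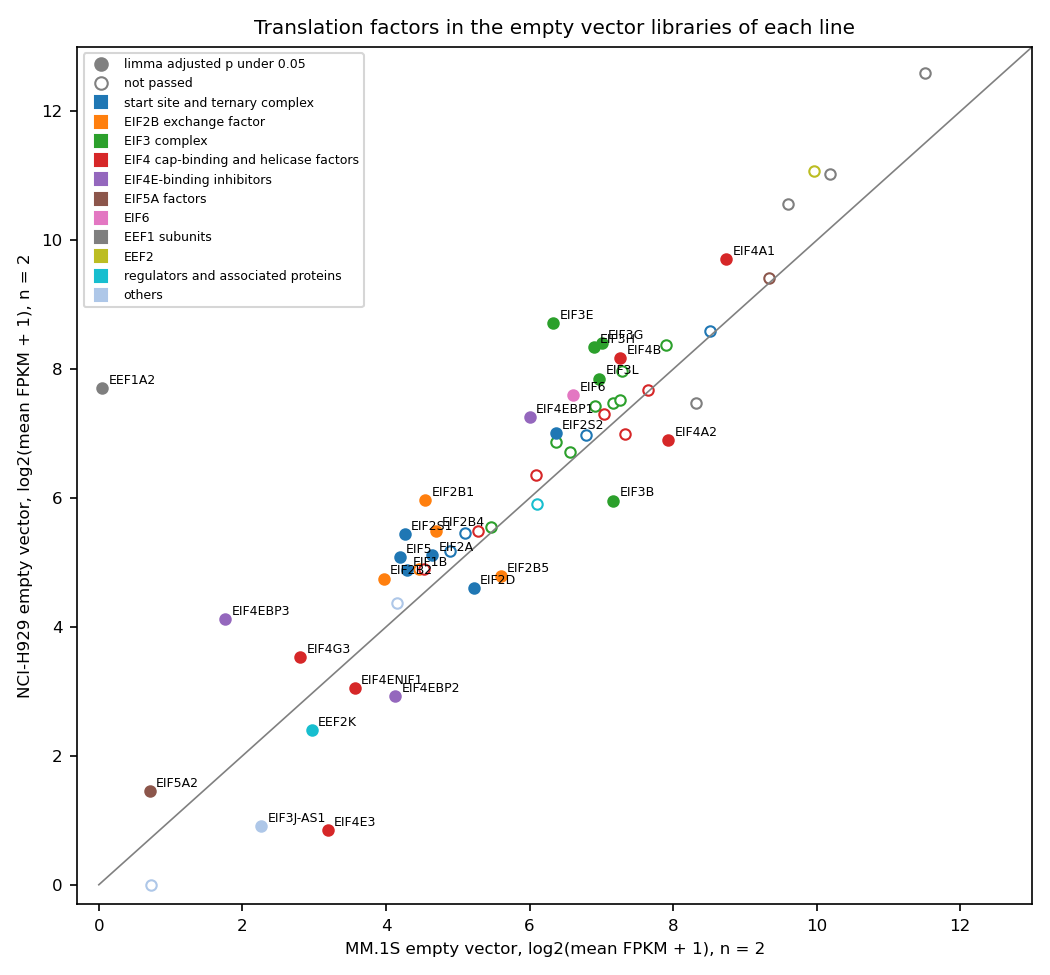
Mean level of each factor in the empty vector libraries of MM.1S (x axis) and NCI-H929 (y axis), as log2(mean FPKM + 1) over 2 libraries each, coloured by factor group, filled and named where the limma adjusted p was under 0.05. EEF1A2 stands at the left edge, 20 filled points lie above the line of equality and 9 below it, among them EIF4E3, EIF4EBP2, EIF4A2 and EIF3B.

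**Figure D5:**
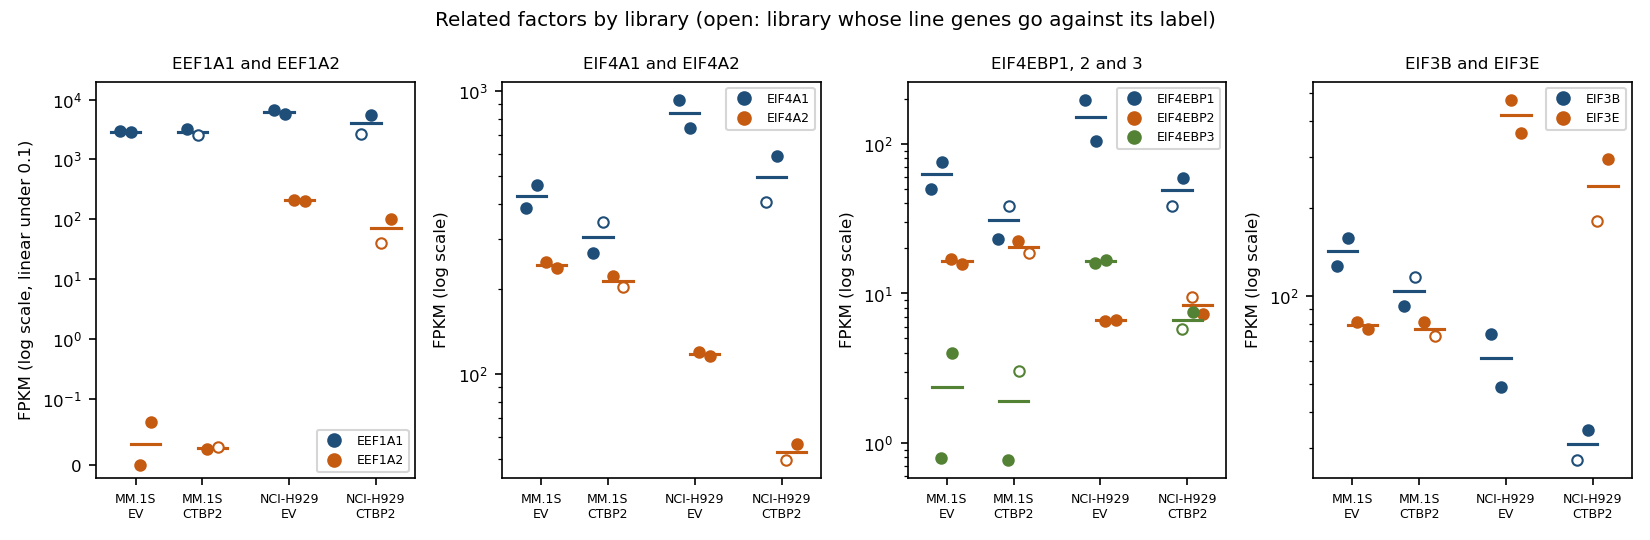
FPKM per library (log scale, linear under 0.1 FPKM in the first panel) of EEF1A1 and EEF1A2, EIF4A1 and EIF4A2, the 3 EIF4EBP genes, and EIF3B and EIF3E, by expressed line and vector, with bars for the mean of 2 and open points for the libraries whose line genes go against their label. EEF1A2 is below 0.1 FPKM in the 4 MM.1S-expressing libraries, and EIF3E lies above EIF3B in the 4 NCI-H929-expressing libraries and below it in the 4 others.

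Promoter sequences from RefSeq (GRCh38.p14, 250 bases before to 50 after each start) were at hand for 48 of the 57 factors, matched by Entrez ID. The series title names MYC, which with MAX binds the E-box CACGTG as textbook knowledge, so that motif was counted. CACGTG (a palindrome, so the same on both strands) occurred in 12 of the 48, or 25.0%, against 13.04% of the genes tested here and 8.78% of all genes with such windows. Of the 12 with it 4 fell and none rose, and of the 36 without it 15 fell and 2 rose. The 4 were EIF4E, EIF4G1, EIF2B3 and EIF4A3, and their E-boxes (in capitals) are shown on the gene's strand with the bases around them.
EIF4E, chr4:98929188-98929217, minus strand: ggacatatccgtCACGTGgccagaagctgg
EIF4E, chr4:98929341-98929370, minus strand: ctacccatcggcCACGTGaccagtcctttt
EIF4G1, chr3:184314450-184314479, plus strand: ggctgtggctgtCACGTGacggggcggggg
EIF4G1, chr3:184314527-184314556, plus strand: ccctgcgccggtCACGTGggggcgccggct
EIF2B3, chr1:44986757-44986786, minus strand: gacagagggacaCACGTGtcgaatgctcct
EIF4A3, chr17:80147232-80147261, minus strand: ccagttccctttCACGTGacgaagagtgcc

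In EIF4E the 2 E-boxes start 72 and 225 bases before the RefSeq start, in EIF4G1 67 and 144, in EIF4A3 121 and in EIF2B3 179. MYC itself was at 189.9 and 188.0 FPKM with the empty vector against 133.9 and 138.7 with CTBP2 in the MM.1S-expressing libraries and at 114.6 and 92.9 against 27.8 and 26.8 in the NCI-H929-expressing libraries, without overlap in either line. Its part in the factors' levels was not tested. The ETS-type motif CCGGAAG, on both strands, was in 13 of the 48 (27.1%, against 22.9% of genes tested). Of these 6 fell, and of the 35 without it 13 fell and 2 rose. CCAAT, on both strands, was in 22 (45.8%, against 43.6%), of which 8 fell, and of the 26 without it 11 fell and 2 rose. The CRE motif TGACGTCA was in 1, EEF2 (2.08%, against 3.82%).

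Many mRNAs of the translation machinery begin with a C followed by a run of pyrimidines, the 5′ terminal oligopyrimidine (TOP) tract through which mTOR controls their translation. A C at the RefSeq start followed by at least 4 pyrimidines was found in 12 of the 48, or 25.0%, against 7.48% of genes tested and 5.14% of all genes with such windows. They were EEF1A1, EEF1B2, EEF2, EIF2A, EIF2D, EIF2S3, EIF3D, EIF3F, EIF3K, EIF3M, EIF4A2 and EIF4B. Of these 12 EIF2A, EIF2S3, EIF3M and EIF4A2 fell, and of the 36 others 15 fell and 2 rose, with medians of -0.53 and -0.41. The tracts of the elongation factors, none of which passed, and of the 4 that fell are shown with the 10 bases before the start and the tract in capitals.
EEF1A1, chr6:73521013-73521042, minus strand: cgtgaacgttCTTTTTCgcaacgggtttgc
EEF1B2, chr2:206159885-206159914, plus strand: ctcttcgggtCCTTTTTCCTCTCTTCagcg
EEF2, chr19:3985444-3985473, minus strand: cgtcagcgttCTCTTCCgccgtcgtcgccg
EIF2A, chr3:150546777-150546806, plus strand: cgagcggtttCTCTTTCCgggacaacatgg
EIF2S3, chrX:24054946-24054975, plus strand: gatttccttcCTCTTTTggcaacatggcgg
EIF3M, chr11:32583821-32583850, plus strand: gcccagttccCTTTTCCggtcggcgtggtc
EIF4A2, chr3:186783567-186783596, plus strand: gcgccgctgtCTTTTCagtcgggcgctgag

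Tract lengths were 7 bases in EEF1A1, EEF2, EIF2S3 and EIF3M, 6 in EIF4A2, 8 in EIF2A and 16 in EEF1B2. A tract describes the RefSeq start only, and the start used in these cells was not measured.

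A list of 55 other genes of the pathway, taken by their role in translation, was read in the same fit, and all 55 were tested. Over both lines 16 fell and 6 rose, at a median of -0.29, where 16.7% of all genes fell and 17.4% rose. In the MM.1S-expressing libraries 2 fell and 0 rose, where 226 of all 12583 genes fell and 462 rose. In the NCI-H929-expressing libraries 18 fell and 6 rose, where 14.6% and 18.3% of all genes did. PDCD4, which blocks the helicase EIF4A, was at 16.7 and 15.9 FPKM with the empty vector and 45.6 and 29.01 with CTBP2 in the MM.1S-expressing libraries, and at 6.16 and 5.76 against 15.7 and 35.7 in the NCI-H929-expressing libraries. It was higher in each line without overlap, by 1.47 (limma SE 0.26, adjusted p = 0.00586), and also passed in the 6 libraries (limma adjusted p = 0.00449) and with the lines as labelled (0.0327). PABPC4, a poly(A)-binding protein, was at 288 and 298 FPKM with the empty vector and 154 and 159 with CTBP2 in the MM.1S-expressing libraries, and at 247 and 237 against 125 and 104 in the NCI-H929-expressing libraries. All 4 CTBP2 libraries were below all 4 empty vector libraries, and it fell to -0.99 (limma SE 0.12, adjusted p = 0.00276), also in MM.1S alone (limma adjusted p = 0.0309) and with the lines as labelled (0.0449). PABPC1, the main form, changed by -0.53 (limma SE 0.14, adjusted p = 0.0211).

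The lists within it are small, and their counts say nothing particular about a list. Release and recycling factors had 3 of 6 lower. ABCE1, which splits ribosomes after termination, was at 36.03 and 33.4 FPKM with the empty vector and 22.2 and 27.04 with CTBP2 in the MM.1S-expressing libraries, and at 50.3 and 43.2 against 16.8 and 16.9 in the NCI-H929-expressing libraries. Its log2 fold change was -0.95 (limma SE 0.19, adjusted p = 0.00784). The release factors ETF1 and GSPT1 changed by -0.57 (limma SE 0.15, adjusted p = 0.0187) and -0.64 (limma SE 0.13, adjusted p = 0.00863), while GSPT2, a paralogue of GSPT1, rose by 0.61 (limma SE 0.14, adjusted p = 0.0126). Of the 8 enzymes that make hypusine on EIF5A and diphthamide on EEF2, DPH2 alone passed, at -0.96 (limma SE 0.19, adjusted p = 0.00768), and the hypusine enzymes DHPS and DOHH did not, at -0.31 (limma SE 0.14, adjusted p = 0.111) and -0.45 (limma SE 0.24, adjusted p = 0.159). Of the EIF2 kinases and phosphatase subunits 1 of 6 passed, the endoplasmic reticulum stress kinase EIF2AK3, with a log2 fold change of -0.77 (limma SE 0.15, adjusted p = 0.00697).

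Among 14 genes of mTOR and MNK signalling 2 fell and 2 rose, a share below the 34.1% of all genes that passed. MLST8, a subunit of both mTOR complexes, changed by -0.80 (limma SE 0.21, adjusted p = 0.0191), and DEPTOR, an mTOR inhibitor, by -1.39 (limma SE 0.16, adjusted p = 0.00212). MKNK1, a kinase that phosphorylates EIF4E, and TSC1, a brake on mTOR, rose by 0.58 (limma SE 0.11, adjusted p = 0.00706) and 0.46 (limma SE 0.11, adjusted p = 0.0156). MKNK2, the other MNK kinase of the list, did not pass, at 0.22 (limma SE 0.11, adjusted p = 0.124). Of 9 mitochondrial translation factors 4 fell, the elongation factors TSFM and TUFM (-0.58 (limma SE 0.14, adjusted p = 0.0133) and -0.54 (limma SE 0.18, adjusted p = 0.0463)), MTIF2 and MRRF. Of 3 other elongation factors HBS1L and EEFSEC fell, with log2 fold changes of -0.44 (limma SE 0.10, adjusted p = 0.0124) and -0.37 (limma SE 0.12, adjusted p = 0.0362), and of the remaining genes DHX29 fell and CYFIP1 and PAIP2B rose. EEFSEC, TUFM, MRRF, DHX29 and CYFIP1 did not pass in the 6 libraries.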

How the data were processed

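Labels' protocols describe TruSeq libraries from 8 transduced cultures. As tools the submitters' processing notes list DESeq2 2.11.40.2, HTSeq 0.9.1, STAR 2.6.0b-1, Trimmomatic 0.36.5 and FastQC 0.11.7, and as build GRCh37 (hg19). The table holds FPKM values deposited by the authors, a unit taken from the table's name, and the tool that made them is not given in the sources used here. Genes with 1 FPKM or more in 2 libraries were kept, and log2(FPKM + 1) was tested with limma 3.58.1 in R 4.3.3 (eBayes with a trend, adjusted p under 0.05 over 12583 genes). Because 1 is added, fold changes of low genes are understated. Both lines together used line and vector (5 residual degrees of freedom), and the other comparisons used 4 group means (4 residual degrees of freedom). P-values measure the spread between these libraries only.

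Genes with values in every library are the called factors of both lines (up to 10 lower and 10 higher by smallest p), of the difference between lines and of the empty vector comparison (up to 5 each way), fixed paralogue pairs and the most abundant gene of each factor group. EIF2S3, EIF3I, EIF4G1 and the further pathway genes were described beside them, and the pathway genes given by library were picked after their values were seen. The members, lists and tests were chosen with earlier results of these data known. Factors with many near-identical pseudogene copies, EEF1A1 above all, have uncertain levels.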

Additional observations from a re-analysis of the deposited data

How the results depend on the processing

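Of the settings run for the count of called factors over both lines (24), 9 were called without a level filter, 15 with equal totals outside immunoglobulin genes and CTBP2, 3 with the lines as labelled, and 13 to 26 with 1 library left out. In the MM.1S-expressing libraries (0) it was 4 without both CTBP2 replicate 2 libraries and 0 to 1 with 1 library left out. In the NCI-H929-expressing libraries (25) it was 11 without a level filter, 15 with equal totals, 0 with the lines as labelled, 11 without both CTBP2 replicate 2 libraries and 8 to 41 with 1 library left out. For the difference between lines (0) it was 1 without a level filter and 0 to 1 with 1 library left out, and for the empty vector comparison (29) it was 17 without a level filter, 0 with the lines as labelled and 17 to 35 with 1 library left out. The calls of all genes moved with these settings too. In the NCI-H929-expressing libraries 1863 of 25906 genes were higher and 939 lower without a level filter. With equal totals it was 3858 and 646 of 12583, and with the lines as labelled 6 and 1. With 1 library left out the factors' median there ranged from -1.01 to -0.42. The medians of all genes in those fits were 0.09 and 0.01. Over both lines 1204 of 25906 genes were higher and 921 lower without a level filter. With equal totals 3776 of 12583 were higher and 877 lower, and with the lines as labelled 192 and 228. With no level filter more genes were tested. With the lines as labelled each CTBP2 group holds 1 library of each expressed line, and for the other shifts the cause was not tested.

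With the replicate number as a block, 23 factors were called over both lines, 2 higher and 21 lower. Replicate 1 minus replicate 2 differences correlated between the 2 vectors at 0.44 in the MM.1S-expressing and 0.45 in the NCI-H929-expressing libraries. Between the lines these correlations were -0.28 to 0.03. The main fits did not pair libraries by number, and whether the numbers mark pairs within a line was not tested. The log2 fold change of EEF1A1 became 0.0087 without both CTBP2 replicate 2 libraries. That of EEF2 became 0.30 with quantile normalization, 0.13 with equal totals, 0.093 with equal totals also outside microRNA and small nucleolar RNA genes (added after seeing the data), 0.23 without both CTBP2 replicate 2 libraries, and ranged from -0.38 to 0.16 with 1 library left out, the latter without the CTBP2 replicate 2 library labelled MM.1S. That of EIF1B became 0.11, 0.24 and 0.21 under the same 3 rescalings, and with 1 library left out it ranged from -0.13 to 0.063, with 0.019 when that was the same CTBP2 library and 0.063 when it was NCI-H929 empty vector replicate 1, and that of EIF5A2 became -0.22 with quantile normalization. Over all named factors and settings 647 values kept direction and side of the threshold, 54 lost the call, 8 gained it and 12 changed sign. With 2 libraries per group and no counts in the table, the precision of single factors is limited.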
